A study of Caenorhabditis elegans with 10 samples.

Results

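The touch receptor neurons of Caenorhabditis elegans are the few cells that sense gentle touch along the body, and 8 genes known for their role in these cells (mec-2, mec-3, mec-4, mec-7, mec-10, mec-12, mec-17 and mec-18) were followed across 5 strains. They were picked by name from 46907 genes in the deposited count tables. A count fell on 7 of the 8, and 5 passed the filter on low counts and could be tested (mec-2, mec-7, mec-10, mec-12 and mec-18).

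RNA was taken from whole animals, with 2 libraries per strain and 10 in all. WT is the wild type. R9Q carries unc-104(R9Q), a single amino acid change in UNC-104, a neuronal kinesin that moves synaptic vesicle precursors down the axon. The strains called T102I, G265R and unc-16 here, labelled unc-104(R9QT102I), unc-104(R9QG265R) and unc-104(R9Q);unc-16, all carry R9Q as well: T102I and G265R have that second change in the same UNC-104 protein, and the unc-16 strain has a mutation in unc-16, which encodes a JNK scaffold protein that binds kinesin. No library was from treated animals. The labels give neither the age or stage of the animals, nor the lesion in unc-16, nor whether the replicates of a strain were separate cultures, so p-values measure only the spread between these libraries. The stated purpose of the libraries was to measure unc-104 mRNA, and the comparisons below use the same strains for other genes. A whole animal holds very few touch receptor neurons, and fewer such cells and less RNA per cell cannot be told apart in these data.

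As background, gentle touch opens a channel of the DEG/ENaC family built from MEC-4 and MEC-10, with the stomatin-like protein MEC-2 beside it in the membrane. The axons are filled with unusually wide microtubules made of the beta-tubulin MEC-7 and the alpha-tubulin MEC-12, and MEC-17 acetylates MEC-12. The LIM homeodomain protein MEC-3 works with UNC-86 to turn these genes on, and MEC-18, which resembles acyl-CoA ligases, is also needed for touch sensitivity. mec-7 and mec-12 are the abundant products of these cells, although mec-12 is also made in other neurons and mec-10 also in the FLP and PVD neurons.

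Assigned counts ranged from 6239272 to 7160785 per library. Levels are given as CPM, that is, counts scaled to library size with TMM factors, and a gene at 0 could hold up to 3 counts in a library (0.419 to 0.481 CPM), from counting error alone. Replicate 1 of T102I, replicate 2 of G265R and replicate 2 of unc-16 stood apart, with 0.0194 to 0.0238% of counts on mitochondrial transcripts against 1.58 to 5.51% in the other 7 libraries. Replicates of WT and R9Q were close (median biological coefficient of variation 0.0802), those of the 3 other strains were not (0.496), and the test pools all strains at 0.363. The summed level of 10 molting genes ran from 34.8 to 2297 CPM over the libraries, and its part in the results below was not tested.

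The 8 genes differed widely in how well they could be counted. The authors counted a read only where it fitted 1 transcript, so a gene with many overlapping transcripts keeps few countable bases. mec-7 (WBGene00003171, X:7774856-7776689, minus strand, WBcel235, the build also called ce11) has 1 transcript and kept all 1564 exon bases, and it gathered 20545 counts over the 10 libraries. mec-12 (WBGene00003175, III:3131574-3139234, minus strand) kept 1536 of 1612 bases and gathered 24655 counts. mec-18 (WBGene00003179, X:4271165-4274216, minus strand) kept 1845 of 2066 bases and gathered 5787 counts. All 3 are thus measured over nearly their whole length. mec-10 (WBGene00003174, X:8465760-8470314, minus strand) kept all 2495 bases of its 1 transcript and gathered 2072 counts. The bases lost from mec-12 and mec-18 lie under Y53G8B.1 and C52B9.10 on the opposite strand. Countable bases are given here with the strand ignored, and values per kilobase use them. The strand setting of the counting was not given in the sources used here. If reads were counted by strand, mec-12 kept all 1612 bases and mec-18 all 2066.

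The other 4 genes were measured in small part or not at all. mec-2 (WBGene00003166, X:5567754-5590830, plus strand) has 17 transcripts in the tables and kept 566 bases, against 4053 in its longest transcript. Of its 250 counts, 204 fell on transcript F14D12.4a.1, which has 53 bases of its own, 43 of them in exon 1 at X:5575926-5575968 and 10 at the end of its last exon at X:5590821-5590830. The other 46 fell on F14D12.4q.1, which has 76 bases of its own in its exon 1. The mec-2 values below therefore describe these few bases of 2 transcripts and not the gene as a whole. mec-3 (WBGene00003167, IV:10458816-10461867, minus strand) kept 97 bases and had 11 counts. mec-17 (WBGene00003178, IV:7983802-7987183, minus strand) kept 432 bases and had 8 counts. For mec-4 (WBGene00003168, X:16803321-16807115, minus strand) the tables list 2 transcripts, of which the annotation holds 1, and both stood at 0 in all 10 libraries. A read shared by both mec-4 transcripts was not counted on either, so this 0 does not show that the gene was silent.

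**Figure D1:**
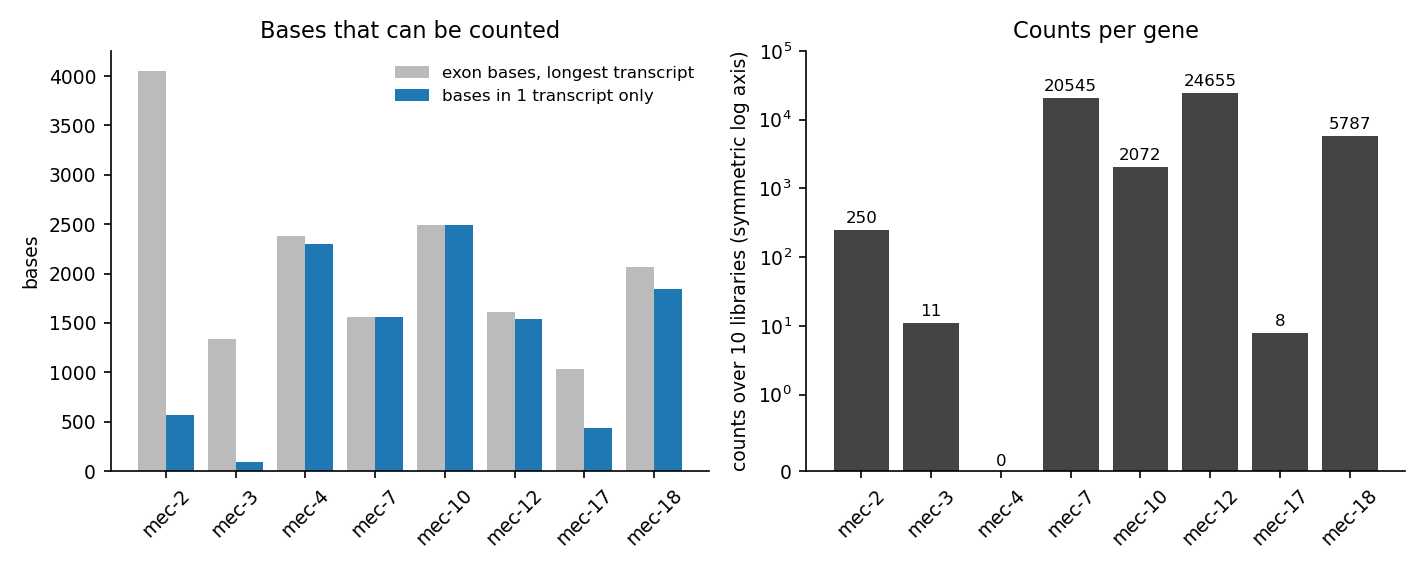
The left panel gives the exon bases of each gene's longest transcript (grey) and the bases that lie in only 1 transcript of the annotation (blue); the right panel gives the counts per gene summed over the 10 libraries on a symmetric log axis. mec-7, mec-10, mec-12 and mec-18 keep nearly all of their bases and have 2072 to 24655 counts, while mec-2 has 250, mec-3 11, mec-17 8 and mec-4 0.

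The contrast between countable bases and counts in that plot is clearest for mec-2 and mec-3, which keep the smallest share of their exon bases, and for mec-4, where the 2301 blue bases were computed from the single annotated transcript. Per kilobase of countable sequence, mean WT levels were 278 CPM for mec-12, 244 CPM for mec-7, 56.4 CPM for mec-18 and 13.5 CPM for mec-10. The tubulins were thus the most abundant of the 4 well measured genes and the channel subunit the least.

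mec-7, the beta-tubulin gene, had 2403 and 2577 counts in WT (replicates 1 and 2), 1471 and 1608 in R9Q, 2629 and 2530 in T102I, 1486 and 2053 in G265R, and 1947 and 1841 in unc-16. In CPM this was 364.5 and 399 in WT, 215 and 207 in R9Q, 413 and 359 in T102I, 237 and 344 in G265R, and 298 and 246 in unc-16. Both R9Q libraries were below the other 8, and T102I overlapped WT. In order, the means were 386 ± 38.2 CPM in T102I, 382 ± 24.7 in WT, 291 ± 75.2 in G265R, 272 ± 37.03 in unc-16 and 211 ± 6.08 in R9Q (SD, n = 2 each). The ranges of the neighbours T102I and WT overlapped, as did those of G265R and unc-16.

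mec-12, the alpha-tubulin gene, had 2864 and 2715 counts in WT, 1864 and 2109 in R9Q, 2712 and 2758 in T102I, 1930 and 2665 in G265R, and 2471 and 2567 in unc-16. Its levels were 434 and 421 CPM in WT, 273 and 271 in R9Q, 426 and 391 in T102I, 308 and 446 in G265R, and 379 and 343 in unc-16. R9Q was again the lowest of all strains, without overlap, and the G265R libraries spanned nearly the whole range above it. The means were 428 ± 9.64 CPM in WT, 409 ± 24.5 in T102I, 377 ± 97.5 in G265R, 361 ± 25.2 in unc-16 and 272 ± 1.21 in R9Q (SD, n = 2 each). Every pair of neighbours in this order overlapped except unc-16 and R9Q.

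mec-10, the channel subunit gene, had 217 and 222 counts in WT, 165 and 205 in R9Q, 252 and 282 in T102I, 175 and 158 in G265R, and 193 and 203 in unc-16. Its levels were 32.9 and 34.4 CPM in WT, 24.2 and 26.4 in R9Q, 39.6 and 40.0 in T102I, 28.0 and 26.5 in G265R, and 29.6 and 27.1 in unc-16. T102I was above every other library and R9Q below every other one. The order of means was T102I (39.8 ± 0.299 CPM), WT (33.7 ± 1.05), unc-16 (28.3 ± 1.73), G265R (27.2 ± 1.06) and R9Q (25.3 ± 1.56; SD, n = 2 each). Among neighbours, unc-16 and G265R overlapped.

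mec-18 had 702 and 656 counts in WT, 513 and 532 in R9Q, 779 and 843 in T102I, 444 and 453 in G265R, and 453 and 412 in unc-16. Its levels were 106.5 and 101.7 CPM in WT, 75.1 and 68.4 in R9Q, 122 and 120 in T102I, 70.9 and 75.8 in G265R, and 69.4 and 55.0 in unc-16. Here the strains formed a high set, T102I and WT, and a low set of R9Q, G265R and unc-16, with no overlap between the sets. The means were 121 ± 1.96 CPM in T102I, 104 ± 3.40 in WT, 73.4 ± 3.48 in G265R, 71.8 ± 4.74 in R9Q and 62.2 ± 10.2 in unc-16 (SD, n = 2 each). G265R overlapped R9Q, and R9Q overlapped unc-16.

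mec-2 had 35 and 29 counts in WT, 32 and 24 in R9Q, 24 and 22 in T102I, 17 and 12 in G265R, and 31 and 24 in unc-16. Its levels were 5.31 and 4.49 CPM in WT, 4.69 and 3.09 in R9Q, 3.77 and 3.12 in T102I, 2.72 and 2.01 in G265R, and 4.75 and 3.21 in unc-16. Only the G265R libraries stood clear of the others, at the low end. The means were 4.90 ± 0.576 CPM in WT, 3.98 ± 1.09 in unc-16, 3.89 ± 1.13 in R9Q, 3.44 ± 0.459 in T102I and 2.36 ± 0.4995 in G265R (SD, n = 2 each), and T102I and G265R were the only neighbours without overlap.

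The 3 genes below the filter carry no comparison. mec-3 had 1 and 1 counts in WT, 1 and 0 in R9Q, 0 and 0 in T102I, 2 and 0 in G265R, and 6 and 0 in unc-16, so all but 1 library were within what a count of 0 allows. mec-17 had 3 and 0 counts in WT, 1 and 0 in R9Q, 1 and 0 in T102I, 0 and 1 in G265R, and 0 and 2 in unc-16, and mec-4 had 0 in each.

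**Figure D2:**
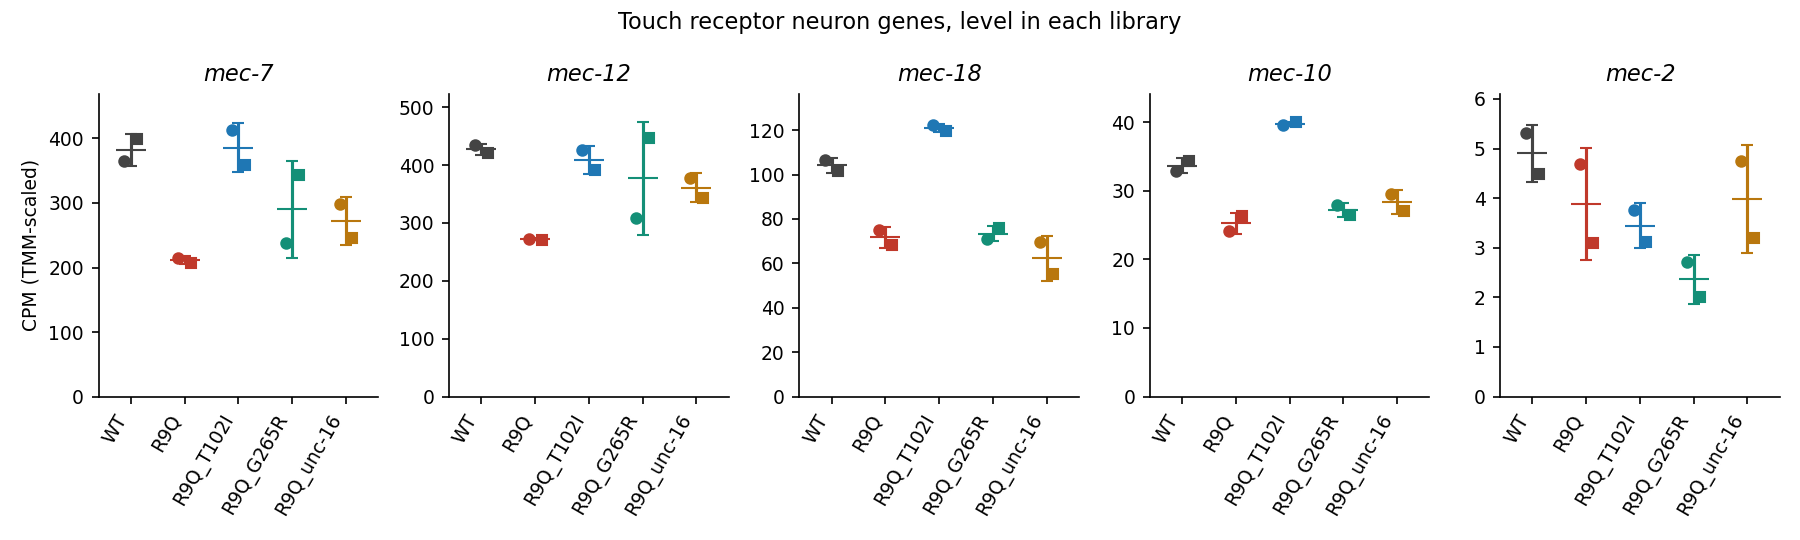
TMM-scaled CPM on the vertical axis of each panel for the 5 tested genes in WT, R9Q and the 3 strains that carry R9Q with a second change (R9Q_T102I, R9Q_G265R, R9Q_unc-16); circles are replicate 1, squares replicate 2, horizontal lines the mean and bars the SD (n = 2). mec-7, mec-12 and mec-10 are lowest in R9Q, mec-18 is as low in G265R and unc-16 as in R9Q, and in T102I these 4 genes lie near or above WT.

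In the plot of levels, the means of the tubulin genes and of mec-10 in G265R and unc-16 lie between those of R9Q and WT. Single libraries do not all do so: mec-12 in G265R replicate 2, at 446 CPM, lies above both WT libraries (434 and 421 CPM). For mec-18, the mean of G265R lies just above that of R9Q (73.4 against 71.8 CPM), with overlap, and that of unc-16 below it (62.2 CPM).

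In R9Q against WT, mec-7, mec-12, mec-18 and mec-10 were lower in both R9Q libraries than in both WT libraries, with mean changes of -44.7%, -36.4%, -31.04% and -24.9%. Over all 12267 genes tested, 32.6% were lower in both R9Q libraries in the same way. The log2 fold change was -0.86 for mec-7 (SE 0.24, 95% interval -1.41 to -0.31), -0.65 for mec-12 (SE 0.23, -1.17 to -0.13), -0.54 for mec-18 (SE 0.19, -0.97 to -0.10) and -0.41 for mec-10 (SE 0.21, -0.89 to 0.07). mec-2 overlapped WT, at -0.34 (SE 0.44), and was at -0.66 without R9Q replicate 1 and -0.062 without R9Q replicate 2. The median of the 5 was -0.54 and that of all genes tested 0.00.

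Across the 10 libraries no member passed the test of R9Q against WT. On simulated data with a biological coefficient of variation of 0.36 in every strain, edgeR recovered 1% of genes changed by 1 log2 unit. The real WT and R9Q libraries were closer (0.0802) and those of the suppressed strains wider (0.496). The 1% is thus not the recovery to expect for these genes. A missing call still does not show an unchanged level. In edgeR's quasi-likelihood test with Benjamini-Hochberg adjustment, adjusted p was 0.314 for mec-7, 0.477 for mec-12, 0.487 for mec-18, 0.745 for mec-10 and 1 for mec-2, with 0.31% of all genes called. At an unadjusted p under 0.05, 3 of the 5 passed (mec-7, mec-12 and mec-18), against 7.67% of all genes. DESeq2 also called 0 of the 5, with 2.05% of all genes called, 1.27% as lower, and an adjusted p of 0.0876 for mec-7.

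Other fits gave other calls. With limma voom and weights by strain, which lets WT and R9Q keep their own smaller spread, 4 members were called lower, with adjusted p of 9.05e-05 for mec-7, 0.000221 for mec-12, 0.00118 for mec-18 and 0.0138 for mec-10. That fit called 25.8% of all genes and 14.3% as lower. With only the 4 WT and R9Q libraries in edgeR the same 4 were called lower, with adjusted p from 8.42e-14 (mec-7) to 0.0129 (mec-10), and 37.7% of 11031 genes were called, 20% as lower.

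In T102I against R9Q the same 4 genes were higher in both T102I libraries, as were 27.9% of all genes. The molting genes differed in the same comparison: their sum was 553 and 594 CPM in T102I against 50.2 and 41.9 CPM in R9Q, with 7 of 7 tested above 0, and their part in the result was not tested. Mean changes were 82.8% for mec-7, 68.5% for mec-18, 57.5% for mec-10 and 50.1% for mec-12. The log2 fold change was 0.87 for mec-7 (SE 0.24, 95% interval 0.32 to 1.42), 0.75 for mec-18 (SE 0.19, 0.32 to 1.19), 0.65 for mec-10 (SE 0.21, 0.17 to 1.14) and 0.59 for mec-12 (SE 0.22, 0.07 to 1.11), while mec-2 was at -0.17 (SE 0.45). No member was lower in both T102I libraries, as 26.9% of all genes were. The member median was 0.65 and that of all genes -0.00. This comparison shares the R9Q libraries with the one above, so the comparisons are not independent.

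None of the 5 passed edgeR's test over 10 libraries in T102I against R9Q, with adjusted p of 0.166 for mec-18, 0.212 for mec-7, 0.289 for mec-10, 0.383 for mec-12 and 0.951 for mec-2, and 0.562% of all genes called. At an unadjusted p under 0.05, 4 passed, against 11.1% of all genes. DESeq2 called mec-18 (adjusted p 0.0306), with 3.71% of genes called and 2.41% as higher. limma voom with weights by strain called the 4 genes, with adjusted p of 0.00675 for mec-7, 0.01 for mec-18, 0.0235 for mec-12 and 0.0394 for mec-10, with 9% of genes called and 6.7% as higher. With only the 4 libraries, edgeR called mec-7 (adjusted p 0.0328) and mec-18 (0.0405), with 7.29% of genes called and 5.05% as higher. Without the 3 libraries that have few mitochondrial counts, which leaves T102I with replicate 2 alone, the log2 fold changes were 0.73 for mec-7, 0.71 for mec-18, 0.63 for mec-10 and 0.49 for mec-12.

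T102I and WT were close for the tubulin genes. The log2 fold change of T102I over WT was 0.01 for mec-7 (95% interval -0.53 to 0.56) and -0.07 for mec-12 (-0.58 to 0.45), so differences of up to about that size in either direction remain possible. mec-10 and mec-18 were higher in both T102I libraries than in both WT ones, as were 28.3% of all genes, at 0.24 (-0.24 to 0.72) and 0.22 (-0.22 to 0.65). mec-2 was lower, as were 26.2% of all genes, at -0.51 (-1.54 to 0.52). No member was called by edgeR (lowest adjusted p 0.772), by DESeq2, by limma voom or in the 4 libraries alone, with 0.0978%, 2.99%, 7.43% and 4.07% of genes called. At an unadjusted p under 0.05 in edgeR, 0 passed, against 10.6% of all genes.

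In G265R against R9Q the tubulin genes were at 0.46 (mec-7, SE 0.24, 95% interval -0.09 to 1.01) and 0.47 (mec-12, SE 0.22, -0.05 to 0.99) on the log2 scale. mec-10 was at 0.11 (-0.37 to 0.59), mec-18 at 0.03 (-0.40 to 0.47) and mec-2 at -0.71 (-1.77 to 0.34). mec-7, mec-10 and mec-12 were higher in both G265R libraries, as were 21.2% of all genes, and mec-2 was lower, as were 22.2%. The size for the tubulins rested on replicate 2, the library with almost no mitochondrial counts and with 509 CPM of molting genes, against 34.8 CPM in replicate 1: without it the log2 fold change was 0.16 for mec-7 and 0.18 for mec-12, and without replicate 1 it was 0.73 and 0.74. edgeR called 0 members and 0% of genes (1069 of 12267 genes had an unadjusted p under 0.05, and 0 members did). DESeq2 and limma voom also called 0 members, with 1.87% and 0.628% of genes called.

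In unc-16 against R9Q, mec-7 was at 0.37 (95% interval -0.18 to 0.91), mec-12 at 0.41 (-0.11 to 0.93) and mec-10 at 0.17 (-0.31 to 0.65), each higher in both unc-16 libraries, as were 22.8% of all genes. The molting genes summed to 157 and 2297 CPM in unc-16 against 50.2 and 41.9 CPM in R9Q, and their part was not tested. mec-18 was at -0.21 (-0.64 to 0.23) and mec-2 at 0.03 (-0.995 to 1.06), both with overlap, so no member was lower in both libraries, as 29.7% of all genes were. edgeR called 0 of the 5 (lowest adjusted p 0.377, for mec-12), with 0.668% of genes called. At an unadjusted p under 0.05 in edgeR, 0 passed, against 19.1% of all genes. DESeq2 and limma voom called 0, with 9.2% and 2.17% of genes called.

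Set against WT, the G265R and unc-16 strains stood lower for most members. In G265R, mec-2, mec-7, mec-10 and mec-18 were below both WT libraries, as were 25.8% of all genes, with log2 fold changes of -1.05 (SE 0.46), -0.39 (SE 0.24), -0.31 (SE 0.21) and -0.50 (SE 0.19). edgeR's adjusted p was 0.338 for mec-18 and higher for the rest, with 0.465% of genes called. At an unadjusted p under 0.05 in edgeR, 1 member passed, against 12.6% of all genes. mec-12 overlapped WT, at -0.18 (SE 0.22). Without G265R replicate 1, mec-7 was at -0.12 and mec-12 at 0.094, and without replicate 2 they were at -0.69 and -0.47. No member was above both WT libraries, as 23% of all genes were. DESeq2 and limma voom called 0 members, with 3.72% and 1.63% of genes called.

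In unc-16 against WT, mec-7, mec-10, mec-12 and mec-18 were below both WT libraries, as were 31.9% of all genes. mec-18 had the largest difference, -0.74 (SE 0.19, 95% interval -1.18 to -0.31), with an edgeR adjusted p of 0.0659 and 4.46% of genes called. It passed with DESeq2 (adjusted p 0.0292, 13.5% of genes called), and it missed with limma voom (0.139, 4.77% of genes called) and with the 4 libraries alone (0.233). Without unc-16 replicate 1 mec-18 was at -0.88. With the 7 libraries that hold more mitochondrial counts, which leave unc-16 with replicate 1 alone, it was at -0.54. Replicate 2 had almost no mitochondrial counts and 2297 CPM of molting genes, against 157 CPM in replicate 1 and 49.7 and 56.9 CPM in WT. The other 4 were at -0.49 (mec-7), -0.25 (mec-10), -0.25 (mec-12) and -0.30 (mec-2), with adjusted p of 0.264 or more in edgeR. All comparisons with WT share the WT libraries, and all with R9Q share the R9Q libraries.

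**Figure D3:**
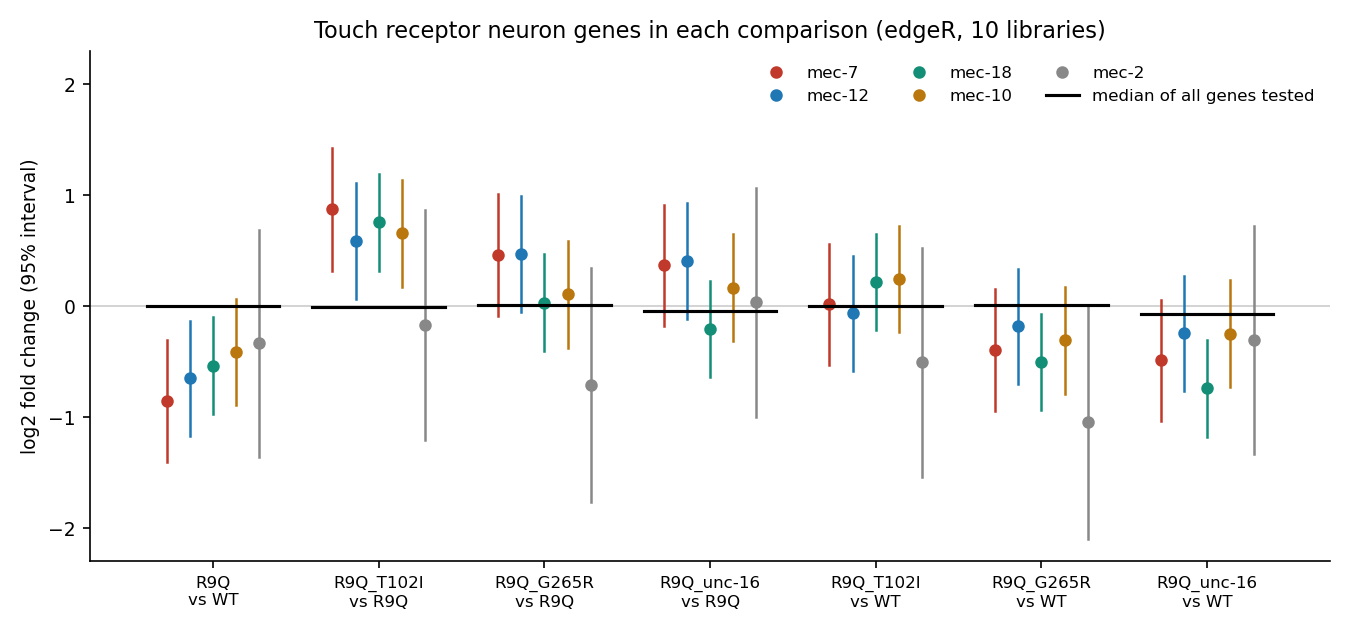
Log2 fold change (vertical axis) of the 5 tested genes in the 7 comparisons from edgeR over 10 libraries; points are estimates, vertical lines 95% intervals and black bars the median of all genes tested. All 5 points lie below 0 in R9Q against WT and 4 of 5 above 0 in R9Q_T102I against R9Q, while all intervals of G265R and unc-16 against R9Q include 0.

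The wide lines for mec-2 in the plot of fold changes reflect its 12 to 35 counts per library. The other 4 genes, with 158 to 2864 counts per library, have shorter lines.

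Differences between the suppressed strains were tested after the values had been seen. mec-18 was higher in T102I than in unc-16 by 0.96 on the log2 scale (SE 0.19, 95% interval 0.52 to 1.40), and higher than in G265R by 0.72 (SE 0.19, 0.29 to 1.16). edgeR's adjusted p was 0.0715 and 0.344, so neither passed. DESeq2 gave 0.0037 and 0.088, limma voom 0.285 and 0.608, and the 4 libraries alone 0.643 and 0.9997. mec-7, mec-10, mec-12 and mec-18 were all higher in both T102I libraries than in both unc-16 libraries, as were 19.8% of all genes, and edgeR called 0 of 5 with 0.783% of genes called. At an unadjusted p under 0.05 in edgeR, 2 members passed, against 14.5% of all genes. DESeq2 called 1 with 4.92% of genes, and limma voom 0 with 0.196%. In T102I against G265R, 4 members (mec-2, mec-7, mec-10 and mec-18) were higher without overlap, as were 15% of all genes, and 0.0978% of genes were called. Between G265R and unc-16 no member exceeded an absolute log2 difference of 0.74 (mec-2, SE 0.46), and 0.0897% of genes were called.

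Over the 10 libraries the Pearson correlation of log2 CPM was 0.943 between mec-7 and mec-12, the partners in the tubulin dimer, and 0.869 between mec-10 and mec-18. Across these pairs it was 0.812 for mec-7 with mec-10, 0.793 for mec-7 with mec-18, 0.638 for mec-10 with mec-12 and 0.583 for mec-12 with mec-18, and mec-2 reached 0.0308 to 0.278 with the others. These points share their libraries and scaling and are given as a description only. In G265R the higher over the lower replicate was 1.45 for both mec-7 and mec-12, and 1.06 and 1.07 for mec-10 and mec-18. In unc-16 it was 1.21 for mec-7, 1.10 for mec-12, 1.09 for mec-10 and 1.26 for mec-18.

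Ratios within a library do not depend on the scaling. mec-7 over mec-12, per kilobase, was 0.824 and 0.932 in WT, 0.775 and 0.749 in R9Q, 0.952 and 0.901 in T102I, 0.756 and 0.757 in G265R, and 0.774 and 0.704 in unc-16. The WT and T102I libraries were all above those of the other 3 strains. mec-18 over mec-10, per kilobase, was 4.37 and 4 in WT, 4.2 and 3.51 in R9Q, 4.18 and 4.04 in T102I, 3.43 and 3.88 in G265R, and 3.17 and 2.74 in unc-16, where both libraries were below all others.

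The members were also set against 13 pan-neuronal genes, of which 11 had a count and 7 passed the filter, while unc-10 and egl-21 were at 0. As with mec-4, a 0 does not show that a gene was silent. The summed CPM of the 5 tested members over that of the pan-neuronal genes was 0.391 and 0.405 in WT, 0.216 and 0.214 in R9Q, 0.370 and 0.410 in T102I, 0.275 and 0.327 in G265R, and 0.391 and 0.343 in unc-16. R9Q was the lowest strain, without overlap. Most of the member sum came from mec-7 and mec-12, at 364.5 and 434 CPM of 944 CPM in WT replicate 1. The ratio thus mainly describes these 2 tubulin genes, and mec-12 is also made in other neurons. The pan-neuronal sum was 2415 and 2375 CPM in WT and 2748 and 2688 CPM in R9Q, so the ratio in R9Q combines a lower sum of members with a higher sum of the other neuronal genes. edgeR over 10 libraries called none of the 7 in any of the 7 comparisons, and it called no member there either. Calls of the pan-neuronal genes by the other fits are not given here. Their median log2 fold change in R9Q against WT was 0.07.

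**Figure D4:**
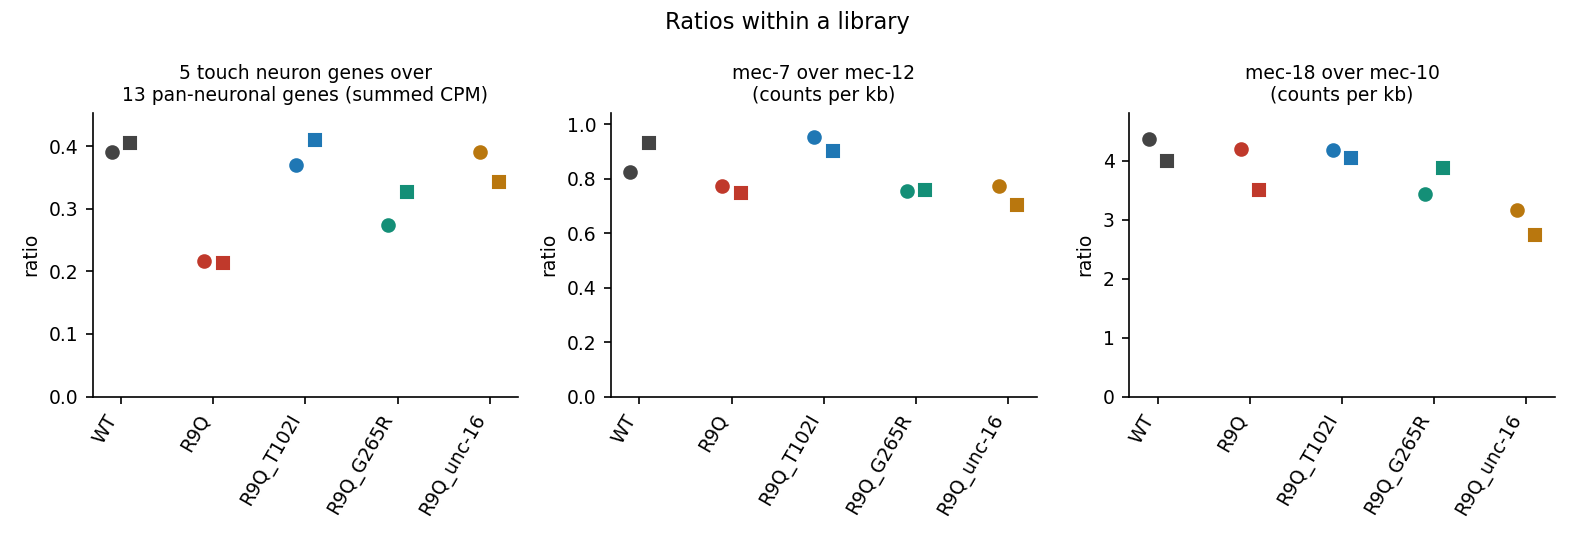
Ratios within each library for the 5 strains, with circles for replicate 1 and squares for replicate 2: the summed CPM of the 5 tested touch neuron genes over that of 13 pan-neuronal genes, mec-7 over mec-12, and mec-18 over mec-10 (both per kilobase of countable sequence). Most of the summed CPM of the touch neuron genes is from mec-7 and mec-12. In the left panel R9Q lies at 0.214 and 0.216, below the other 8 libraries, and in the right panel unc-16 lies at 2.74 and 3.17, below all others.

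The left panel of the plot of ratios sets unc-16 beside WT because both its member sum (781 and 674 CPM) and its pan-neuronal sum (1996 and 1964 CPM) were below WT. A high ratio there is not a WT level of the members.

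Other genes of touch neuron biology were followed in lists compiled from general knowledge of these cells. For the attachment of these neurons to the skin, 3 of 4 genes were tested, with a median log2 fold change of -0.46 in R9Q against WT and 0.02 in T102I against R9Q. The most counted was mec-5, a collagen of the matrix over the neurons, at 99.2 and 106 CPM in WT and 78.1 and 69.5 in R9Q (-0.48, SE 0.53, adjusted p 1 in edgeR), but at 181 CPM in G265R replicate 2 and 134 CPM in unc-16 replicate 2. For other genes needed for the channel, 3 of 5 were tested, with medians of -0.15 and -0.00. Their most counted member, the stomatin-like unc-24, was at 28.4 and 30.5 CPM in WT and 21.5 and 31.5 in R9Q. None of these was called by edgeR over 10 libraries in the 7 comparisons.

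Among 9 regulators of touch neuron fate, 7 were tested and 1 was called by edgeR over 10 libraries. unc-86, the partner of mec-3, had 0 to 2 counts per library and was not tested, and egl-44 was at 0. Reads shared by several transcripts are in no count, so these values do not show that the genes were silent. egl-46, a zinc finger gene known to keep touch neuron genes off in the FLP neurons, was at 19.7 and 14.6 CPM in WT, 47 and 44.2 in R9Q, 40.0 and 39.4 in T102I, 33.5 and 27.3 in G265R, and 54.2 and 43.5 in unc-16. Both WT libraries were below all 8 with R9Q, T102I included. It rose in unc-16 against WT by 1.51 on the log2 scale (SE 0.25, adjusted p 0.0232 in edgeR). In R9Q against WT it was at 1.41 (SE 0.25), with an adjusted p of 0.092 in edgeR, 0.000188 in DESeq2 and 8.28e-05 in limma voom. The list's median in R9Q against WT was 0.06.

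Of the 4 markers of the PVD and FLP neurons, which sense harsh touch, 3 were tested and deg-3 was at 0. That 0 likewise does not show a silent gene. dma-1, the receptor that shapes the PVD dendrite, was at 22.8 and 22.2 CPM in WT, 53.3 and 52.6 in R9Q, 38.6 and 46.7 in T102I, 45.2 and 62.5 in G265R, and 96.8 and 60.4 in unc-16. WT was again the lowest strain without overlap. dma-1 rose in unc-16 against WT (1.81, SE 0.29, adjusted p 0.0216 in edgeR). In R9Q against WT it was at 1.24 (SE 0.28), with an adjusted p of 0.205 in edgeR, 0.0174 in DESeq2 and 6.22e-05 in limma voom. The other tested markers, des-2 and hpo-30, were not called by edgeR over 10 libraries, at 0.30 and 0.38 in R9Q against WT and at -0.69 and -0.71 in unc-16 against WT.

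In the families that hold members, 19 of 28 other DEG/ENaC genes were tested, with a median of -0.32 in R9Q against WT and -0.18 in T102I against R9Q. 1 was called: del-6 fell in unc-16 against WT by 1.53 (SE 0.31, adjusted p 0.0401 in edgeR), from 24.7 and 19.7 CPM to 8.58 and 6.81. Of 8 other stomatin genes 4 were tested and 0 called, by edgeR in the 7 comparisons (median -0.23 in R9Q against WT), and sto-6, the most counted, was at -0.31 (SE 0.27) there. Of 13 other tubulin genes 9 were tested, with medians of -0.25 in R9Q against WT and -0.34 in T102I against R9Q. The called tubulin gene was tbb-6, a beta-tubulin known as a stress-induced gene, at 7.28 and 5.11 CPM in WT, 34.9 and 38.8 in R9Q, 7.85 and 5.96 in T102I, 25.2 and 12.4 in G265R, and 391 and 260 in unc-16. It rose in unc-16 by 3.14 against R9Q (SE 0.40, adjusted p 0.0308) and by 5.71 against WT (SE 0.45, adjusted p 0.00243, both in edgeR). In R9Q against WT it was at 2.57 (adjusted p 0.0646) and in T102I against R9Q at -2.42 (adjusted p 0.0516), both short of the threshold in edgeR, with mec-7 on the other side of 0 each time, while in unc-16 against R9Q both were above 0. Of 7 other genes made in touch neurons 4 were tested and none was called by edgeR (median 0.16 in R9Q against WT), and the most counted, the ubiquitin ligase gene rpm-1, was at 0.17 (SE 0.40). With only the 4 libraries of unc-16 and WT, edgeR's adjusted p was 0.148 for egl-46, 0.143 for dma-1, 0.163 for del-6 and 0.0842 for tbb-6, so these calls were lost, and limma voom lost del-6 (0.191).

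**Figure D5:**
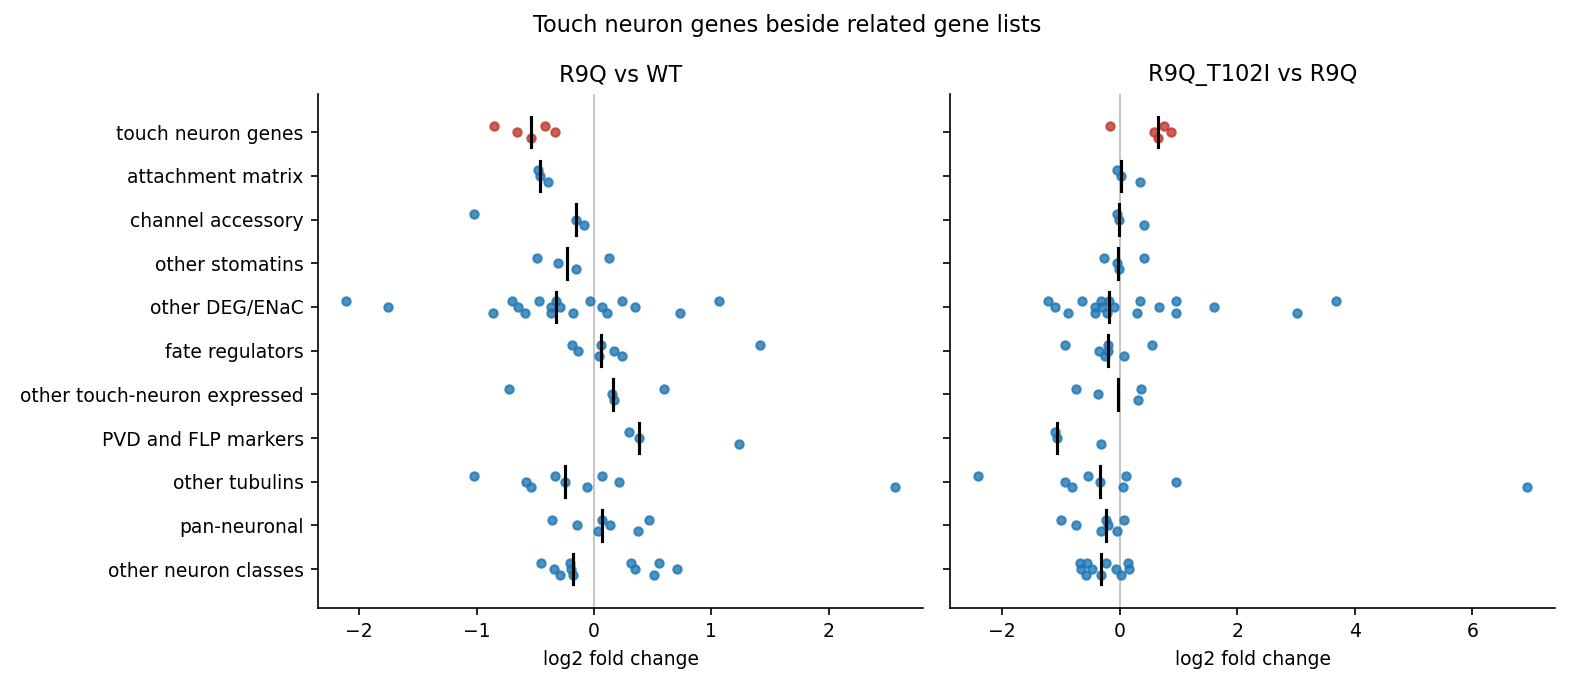
Log2 fold change (horizontal axis) of each tested gene in the touch neuron set (red) and in related lists (blue), in R9Q against WT and in R9Q_T102I against R9Q, with black bars for the median of each list. The touch neuron genes have medians of -0.54 and 0.65; the medians of the other lists plotted lie between -0.46 and 0.38 on the left and between -1.06 and 0.02 on the right.

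As the plot of lists shows, several single genes of the other lists lay farther from 0 than any member. Lists outside the plot reached medians as far from 0: molting genes (7 tested) were at 4.77 and yolk genes (1 tested) at 0.86 in T102I against R9Q, and sperm genes (2 tested) at 0.65 in R9Q against WT. This is a description of the lists and no test of the members against them.

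Likeness was measured over 7520 other genes that averaged 50 counts or more, and the 5 whose log2 CPM followed the mean of the 5 members most closely over the 10 libraries were WBGene00007838 (r = 0.972), F17A9.5 (0.969), gsy-1 (0.953), oac-14 (0.943) and T20B3.1 (0.933). With so many genes and 10 libraries, high values arise readily, and these are given as a description. The higher over the lower replicate had a median over all genes of 1.12 in WT and R9Q, and of 1.35, 1.59 and 1.71 in T102I, G265R and unc-16, and the ratios of mec-7, mec-10, mec-12 and mec-18 were 1.01 to 1.10, 1.01 to 1.15, 1.06 to 1.45 and 1.09 to 1.26 in these strains. The 4 genes thus varied less between replicates than the median gene in every strain. That median covers tested genes of any count, while these 4 had 158 to 2864 counts per library. mec-2, with 12 to 35 counts, was above the median in WT (1.18) and R9Q (1.52). It was below the median in T102I (1.21), G265R (1.35) and unc-16 (1.48).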

How the data were processed

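The values are raw counts per transcript from the authors. The submitters' processing notes name Trim Galore 0.4.4, STAR 2.5.4b, HTSeq 0.9.1 and the build ce11. Strand setting and annotation release are not given in the sources used here. Of 61451 deposited transcripts, 56781 matched WBcel235 (Ensembl release 115) by identifier and 4581 by sequence name, and 89, with 0.0486% of counts, kept their own name. Counts were summed per gene. Reads that fitted several transcripts, 57.7 to 61.8% of aligned reads, are in no count, and the 5 summary entries were left out. Per library, 16552312 to 20352186 reads were listed as not aligned, with 33329130 to 40806721 reads in all.

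All 10 libraries were fitted in R 4.3.3 with edgeR 4.0.16 (TMM, filterByExpr with a minimum count of 10, glmQLFit and glmQLFTest, 1 term per strain, 5 residual degrees of freedom), with Benjamini-Hochberg adjustment over 12267 genes. A gene is called at an adjusted p under 0.05. SEs and intervals were derived from the test statistic. limma 3.58.1 and DESeq2 1.42.0 were alternatives, with other scalings, filters and subsets of libraries. Fits were tested on simulated data with 100 genes changed in R9Q at each size. Every strain was given the same spread there, unlike in these libraries. At a biological coefficient of variation of 0.36, edgeR and limma voom recovered 1% and 3% of changes of 1 log2 unit. For changes of 2 log2 units they recovered 43% and 41%. At 0.08 they recovered 98% and 97% of changes of 1 log2 unit. Named genes were the 8 members and, per related list, each called gene (up to 4), otherwise the most counted. Members and lists were chosen with earlier results of these data known.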

Additional observations from a re-analysis of the deposited data

How the results depend on the processing

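In the 7 comparisons with WT or R9Q the log2 fold changes of the 5 tested genes were recomputed under 11 alternatives (mec-2 under 10, as it fell below the 5 CPM filter) and without each library in turn. The 3 comparisons between suppressed strains had DESeq2, limma voom and the 4 libraries alone. Of the 773 values, 719 kept their direction and their side of the threshold, 37 were newly called and 17 changed direction. The changes of direction concerned values near 0: mec-18 in G265R against R9Q (-0.022 with upper quartile factors, -0.010 with a filter of 5 CPM in 4 libraries, -0.033 with only the 7 libraries that hold more mitochondrial counts), mec-2 in unc-16 against R9Q (-0.035 with the most counted transcript only) and mec-7 in T102I against WT (-0.024 with upper quartile factors, -0.023 with the 5 CPM filter, -0.065 with the library set as a term, -0.12 with the 7 libraries). Leaving out 1 library at a time turned mec-2 in T102I against R9Q (-0.44 to 0.16) and in unc-16 against R9Q (-0.25 to 0.35), mec-18 in G265R against R9Q (-0.033 to 0.11), mec-7 in T102I against WT (-0.12 to 0.12) and mec-12 in G265R against WT (-0.47 to 0.094).

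Members called moved from 0 to 4 in R9Q against WT with limma voom (25.8% of all genes called) and with the 4 libraries alone (37.7%). In T102I against R9Q they moved from 0 to 1 (DESeq2, 3.71% of genes called), 4 (limma voom, 9%) and 2 (4 libraries, 7.29%). In unc-16 against WT 1 was called with DESeq2 (13.5% of genes called) and 1 with the library set term (2508 of 12267 genes). In T102I against unc-16 1 was called with DESeq2 (4.92% of genes called). The 7 libraries alone leave each suppressed strain with 1 library that is assumed to vary like WT and R9Q. Leaving out 1 library likewise leaves its strain with 1. Member calls from these fits are among the 37 above and are not listed here.

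Genes called moved in this order for R9Q against WT, T102I against R9Q, G265R against R9Q, unc-16 against R9Q, T102I against WT, G265R against WT and unc-16 against WT. Without a count filter they were 322, 795, 460, 1263, 601, 728 and 1672, with DESeq2 252, 455, 229, 1129, 367, 456 and 1659, with the library set term 225, 493, 126, 1531, 393, 667 and 2508, and with the 7 libraries 4224, 4676, 4399, 6561, 4753, 5308 and 7040. Without 1 library in turn they ranged from 0 to 97, 0 to 266, 0 to 13, 0 to 681, 0 to 104, 0 to 149 and 7 to 1448. For R9Q against WT the count was 0 without either R9Q library. limma voom gave 3165, 1104, 77, 266, 911 and 200 in the first 6 comparisons. The 4 libraries alone gave 4158 in R9Q against WT, 820 in T102I against R9Q, 450 in T102I against WT and 0 in the comparisons of unc-16 and G265R with WT and of unc-16 with R9Q. The 5 CPM filter gave 58 in R9Q against WT, 136 in unc-16 against R9Q and 21 in T102I against WT. In the comparisons between suppressed strains, chosen after seeing the data, DESeq2 gave 603 (T102I against unc-16), 186 (T102I against G265R) and 328 (G265R against unc-16), the 4 libraries alone 0 in each, and limma voom 24 in T102I against unc-16 and 0 in G265R against unc-16. The cause of these shifts was not tested.

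Over 10921 genes, differences between replicates 1 and 2 correlated at -0.048 to 0.0348 in pairs of strains with WT or R9Q. They correlated at -0.661 for T102I with G265R, -0.482 for T102I with unc-16 and 0.626 for G265R with unc-16. In these 3 strains the library with few mitochondrial counts is replicate 1, 2 and 2. The correlations among these 3 strains therefore cannot show whether the replicate numbers pair the libraries. WT and R9Q, which have no such library, gave 0.00149 and so showed no shared difference between replicates 1 and 2. With the replicate block, genes called were 3 in R9Q against WT, 24 in T102I against R9Q, 18 in unc-16 against R9Q, 2 in T102I against WT, 18 in G265R against WT and 218 in unc-16 against WT, and members called stayed at 0 in all 7 comparisons.

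Depth limits mec-2 (12 to 35 counts per library), mec-3, mec-4 and mec-17, of which the last 3 support no comparison. Values describe only the bases that belong to 1 transcript. The stage of the animals is not in the labels used here and was not fitted. No search of the promoters was run.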
